A study of Mus musculus with 12 samples.

Results

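The 10 genes described here encode the type 2 cytokines interleukin-4 and interleukin-13, the alarmins interleukin-33 and TSLP, the receptor chains of these 4 ligands and the transcription factor Stat6. They were selected by symbol as Il4, Il13, Il4ra, Il13ra1, Il13ra2, Stat6, Il33, Il1rl1, Tslp and Crlf2, and all 10 were found among the 25070 genes of the deposited table. Expression was measured by RNA sequencing of total RNA from mouse skin in 12 libraries, with biopsies labelled as taken 4 days after tick attachment, a time that the unbitten samples also carry. The groups were naive skin labelled as not bitten (n = 2), bitten skin after a first exposure (n = 3), bitten skin labelled ticks 2x (n = 3) or ticks 3x (n = 3), and bitten skin of a mouse labelled saliva immune (n = 1). The labels give no strain, sex, age or tick species. They also do not say how saliva immunity was raised or whether 2x and 3x count the sampled infestation. No label says that the libraries came from separate animals, so p-values measure only the spread between these samples, which may be technical.

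Interleukin-4 and interleukin-13 are the signature cytokines of type 2 immunity, made chiefly by helper T cells, group 2 innate lymphoid cells (ILC2), basophils and mast cells. Both signal through the chain encoded by Il4ra, which pairs with the common gamma chain or with the Il13ra1 product and activates Stat6, while the Il13ra2 product binds interleukin-13 as a decoy. Interleukin-33 and TSLP are alarmins of barrier tissue, released or secreted by keratinocytes, stromal and endothelial cells, and they act on ILC2, mast cells, basophils and dendritic cells through receptors that contain the Il1rl1 (ST2) and Crlf2 (TSLP receptor) products.

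Levels are given in CPM (reads per M, or mega, library reads). This unit is not scaled to gene length, so levels were compared between libraries and not between genes. Depth was estimated from the smallest step between low values as 12.5 M to 29.8 M reads per library, and 3 reads, used as the detection floor, corresponded to 0.101 to 0.240 CPM. Krt5, a keratin of basal keratinocytes, stood at 1660 to 4846 CPM, so every library carried the epidermal signal that its skin label calls for. In bulk skin, fewer cells of a type and less RNA per cell cannot be told apart. The first exposure and saliva immune libraries carry 1 series number in their titles and all other libraries another, so comparisons with first exposure cannot be told apart from that difference, whereas naive, 2x and 3x share 1 series.

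Libraries stood apart inside the groups. For the 10 genes, the median rank of a library among the 12 (rank 1 being the highest level) was 9 in 2x replicate 1 and 9 in 3x replicate 3. Replicates 2 and 3 of 2x had median ranks of 1.5 and 5.5, and replicates 1 and 2 of 3x had 3.5 and 3. First exposure replicate 3 had a median rank of 6.5, against 11 and 12 in replicates 1 and 2 of its group. Hair follicle content varied just as widely. The mean of 15 hair follicle markers, on the log2(CPM + 1) scale, was 7.33 and 0.93 in naive skin, 8.89, 9.16 and 1.75 after the first exposure, 8.71, 2.61 and 0.67 in 2x, 4.98, 6.49 and 0.72 in 3x, and 0.64 in the saliva immune library. The 3 libraries with the highest follicle signal, 2x replicate 1 and first exposure replicates 1 and 2, were low for most of the 10 genes, yet 3x replicate 3 was low at a follicle mean of 0.72. That library had the highest summed skeletal muscle markers (41224 CPM) and adipocyte markers (10886 CPM) of the 12, and its fibroblast markers summed to 4708 CPM, against 4669 to 15848 CPM in the other 11. The part of this tissue content in its low values was not tested.

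Il4 transcripts were scarce. Il4 had 0.403 and 0.400 CPM in naive skin, 0.105, 0.223 and 0.259 CPM after the first exposure, 0.246, 0.793 and 0.683 CPM in 2x, and 1.75 CPM, 2.76 CPM and a value listed at 0 in 3x. By the estimated depth these are 12 and 5 reads in naive skin, 3 to 6 reads after first exposure, 5 to 15 reads in 2x, and 36, 59 and 0 reads in 3x. The first exposure libraries lay below both naive libraries without overlap, and the 3x group was split between the highest values of the 11 libraries compared and no detected read, where 3 reads would be 0.149 CPM. Only 3x replicates 1 and 2 reached 1 CPM, which brought Il4 past the level for testing, 1 CPM in at least 2 of those 11 libraries.

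Il13, the neighbour of Il4, was also scarce. Il13 had 0.437 and 0.240 CPM in naive skin (13 and 3 reads), a value listed at 0, 0.167 and 0.129 CPM after the first exposure (0, 3 and 3 reads), 0.492, 0.845 and 0.435 CPM in 2x (10, 16 and 7 reads), and 1.22, 0.888 and 0.498 CPM in 3x (25, 19 and 10 reads). All 6 libraries of repeat exposure, meaning 2x and 3x together, lay above all 3 first exposure libraries, a separation found in 3.07% of all genes tested. All 3 libraries of 3x also lay above both naive libraries, as did 15.5% of all genes tested, whereas 2x replicate 3 fell between the naive values. Il13 did not reach the level for testing across all genes and was tested alone. Repeat exposure exceeded first exposure by 0.64 in mean log2(CPM + 1) (two-sided exact permutation test, p = 0.0119, the smallest that 6 against 3 libraries allow, 0.0238 adjusted over the 2 tests of this kind). Against naive skin the difference was 0.36 (exact permutation p = 0.143, where 0.0357 is the smallest possible). With all genes kept in the limma fit, the adjusted p of Il13 over all genes was 0.0706 against first exposure and 0.573 against naive skin.

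In the mouse both cytokine genes lie on the minus strand of chromosome 11 in the RefSeq annotation of GRCm38.p6, Il4 at chr11:53612460-53618665 and Il13 at chr11:53631323-53634702, with 12657 bases and 0 annotated genes between them. Of the 10 genes, 9 (all except Tslp) had 12 promoter windows in the RefSeq table of that build, each read here as the 250 bases before a start site. The windows were searched on both strands for AGATAA, the core site of Gata3 and its relatives. It was present in 9.99% of 32851 promoters and in 4 of the 12 windows, of Il13, Il13ra2 and both Il1rl1 windows. The matches are a description of letters and not of bound sites. These 4 windows are shown because they hold the motif, with matches in capitals, and the 8 windows without it are not shown.
Il13 (chr11:53634703-53634952, minus strand): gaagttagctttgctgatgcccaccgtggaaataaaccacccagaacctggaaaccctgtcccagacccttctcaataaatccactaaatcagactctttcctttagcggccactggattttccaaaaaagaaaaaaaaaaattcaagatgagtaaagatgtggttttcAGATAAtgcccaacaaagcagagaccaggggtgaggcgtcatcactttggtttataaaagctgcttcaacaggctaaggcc
Il13ra2 (chrX:147429193-147429442, minus strand): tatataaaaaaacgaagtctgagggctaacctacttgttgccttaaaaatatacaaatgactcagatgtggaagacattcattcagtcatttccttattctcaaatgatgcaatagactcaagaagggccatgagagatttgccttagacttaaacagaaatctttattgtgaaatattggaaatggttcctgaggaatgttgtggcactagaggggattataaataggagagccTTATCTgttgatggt
Il1rl1, first window (chr1:40429320-40429569, plus strand): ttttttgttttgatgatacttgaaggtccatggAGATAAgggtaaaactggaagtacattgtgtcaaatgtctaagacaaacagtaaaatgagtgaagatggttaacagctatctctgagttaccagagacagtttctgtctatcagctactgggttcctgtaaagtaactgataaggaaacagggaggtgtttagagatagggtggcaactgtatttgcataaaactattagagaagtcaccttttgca
Il1rl1, second window (chr1:40439379-40439628, plus strand): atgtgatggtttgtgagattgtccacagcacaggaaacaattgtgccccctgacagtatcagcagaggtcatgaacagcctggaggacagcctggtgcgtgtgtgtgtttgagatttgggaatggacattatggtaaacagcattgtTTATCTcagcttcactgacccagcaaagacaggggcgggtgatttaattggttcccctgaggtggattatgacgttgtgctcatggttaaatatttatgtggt
Counted back from the start site, the motif began 81 bases before it in Il13, 15 bases before it in Il13ra2, and 217 and 103 bases before it in the first and second Il1rl1 window.

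In the same annotation, the other 8 protein-coding genes lie at chr7:125552271-125579474 (Il4ra), chrX:36112108-36171262 (Il13ra1), chrX:147383478-147429192 (Il13ra2), chr10:127642955-127660987 (Stat6), chr19:29925113-29960718 (Il33), chr1:40404864-40465418 (Il1rl1), chr18:32815383-32819799 (Tslp) and chr5:109554709-109559128 (Crlf2).

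**Figure D1:**
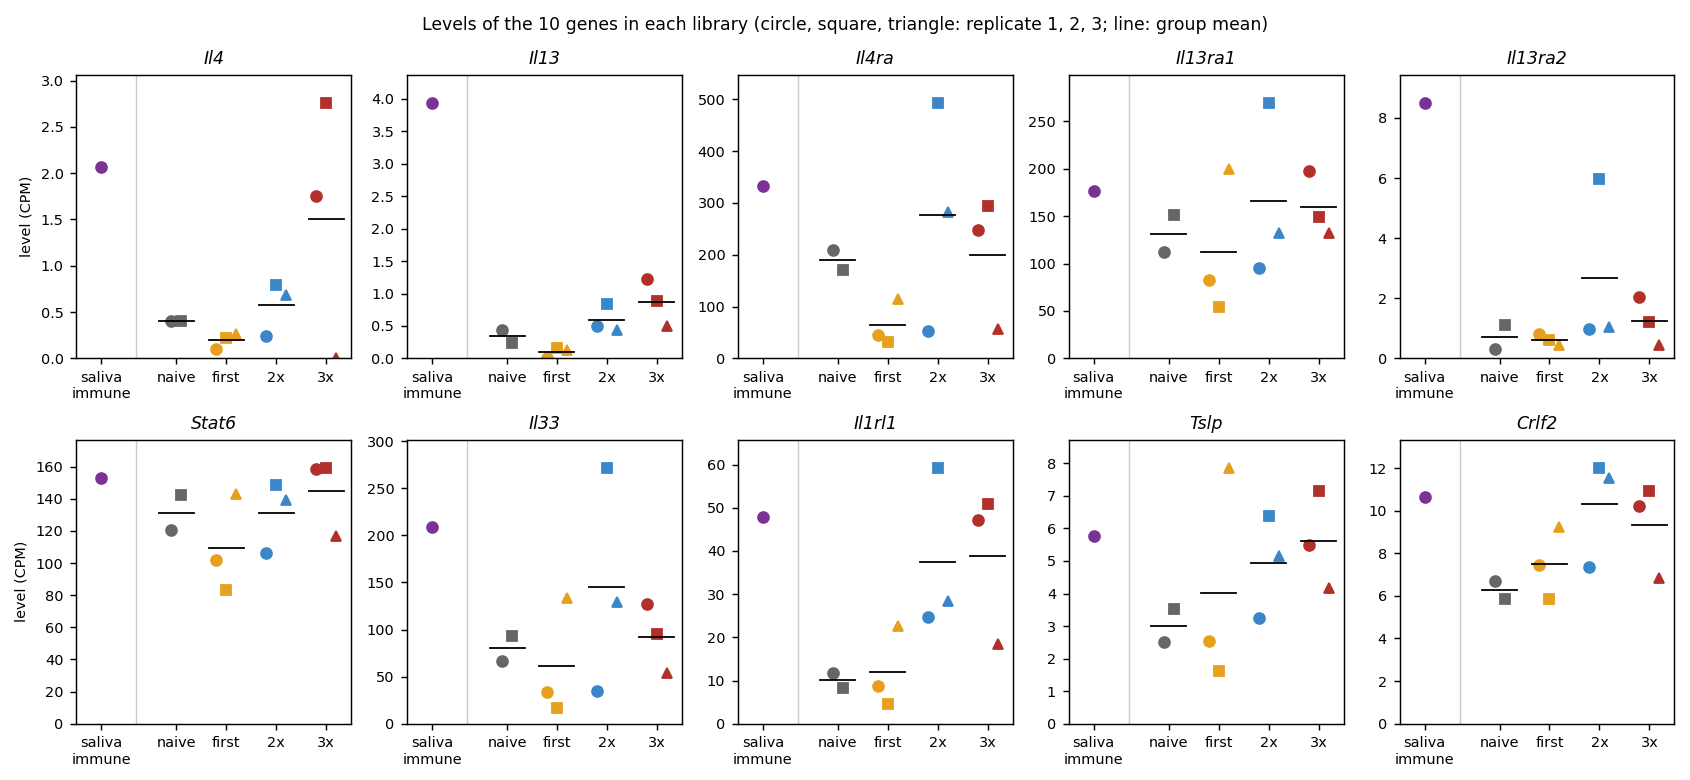
Level of each of the 10 genes in CPM (vertical axes, each from 0) in the 12 libraries, by group (horizontal axes), with circles, squares and triangles for replicates 1, 2 and 3 and a line at the group mean. Il1rl1 and Crlf2 were above both naive libraries in all 6 libraries of 2x and 3x, and 2x replicate 1 and 3x replicate 3 lay low in their groups for most genes.

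The signalling chains for interleukin-4 and interleukin-13 were detected in every library and ranged widely within groups. Il4ra had 210 and 170 CPM in naive skin, 45.2, 31.5 and 115 CPM after the first exposure, 52.9, 493 and 282 CPM in 2x, and 248, 294 and 56.5 CPM in 3x. The first exposure libraries lay below both naive libraries without overlap, while 2x and 3x each held libraries above and below naive skin. Il13ra1, the partner chain of the type II receptor, had 112 and 151 CPM in naive skin, 82.5, 53.8 and 199 CPM after the first exposure, 94.8, 269 and 132 CPM in 2x, and 198, 149 and 132 CPM in 3x. First exposure, 2x and 3x each overlapped naive skin for this chain.

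The decoy receptor and the shared transcription factor behaved differently in spread. Il13ra2 had 0.302 and 1.12 CPM in naive skin, 0.804, 0.613 and 0.431 CPM after the first exposure, 0.983, 5.97 and 1.06 CPM in 2x, and 2.04, 1.22 and 0.448 CPM in 3x. One value, the 113 estimated reads of 2x replicate 2, stood well above the rest of these groups. Stat6 had 120 and 142 CPM in naive skin, 102, 83.4 and 143 CPM after the first exposure, 106, 148 and 139 CPM in 2x, and 159, 159 and 117 CPM in 3x. Its highest library was 1.91 times its lowest over all 12, against 15.6 times for Il4ra and 28.1 times for Il13ra2, and naive skin, first exposure, 2x and 3x overlapped one another.

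Il33 spanned 16.1-fold over the 12 libraries and was highest in 2x replicate 2. Il33 had 67.0 and 93.6 CPM in naive skin, 33.6, 16.8 and 133 CPM after the first exposure, 34.9, 271 and 129 CPM in 2x, and 127, 95.7 and 53.6 CPM in 3x. Naive skin, first exposure, 2x and 3x overlapped one another. The lowest Il33 values, in first exposure replicates 1 and 2 and in 2x replicate 1, were those of the libraries with the highest hair follicle signal.

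Il1rl1, which encodes the receptor for interleukin-33, had the largest fold change over naive skin among the 9 genes that could be tested. Il1rl1 had 11.8 and 8.23 CPM in naive skin, 8.81, 4.57 and 22.7 CPM after the first exposure, 24.7, 59.2 and 28.4 CPM in 2x, and 47.2, 50.8 and 18.4 CPM in 3x. All 6 libraries of repeat exposure were above both naive libraries, the lowest of them being 3x replicate 3. First exposure replicate 1 lay between the naive values and replicate 2 below them, whereas replicate 3 lay inside the range of repeat exposure.

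Over the 12 libraries the highest level was 4.86 times the lowest for Tslp and 2.06 times the lowest for Crlf2, the TSLP receptor chain. Tslp had 2.52 and 3.51 CPM in naive skin, 2.55, 1.62 and 7.85 CPM after the first exposure, 3.24, 6.39 and 5.15 CPM in 2x, and 5.50, 7.15 and 4.18 CPM in 3x. Its highest library was first exposure replicate 3, and 3x lay above naive skin without overlap while 2x did not. Crlf2 had 6.72 and 5.83 CPM in naive skin, 7.45, 5.85 and 9.23 CPM after the first exposure, 7.37, 11.99 and 11.5 CPM in 2x, and 10.2, 10.9 and 6.82 CPM in 3x. All 6 libraries of repeat exposure exceeded both naive libraries, the closest pair being 6.82 CPM in 3x replicate 3 and 6.72 CPM in naive replicate 1.

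**Figure D2:**
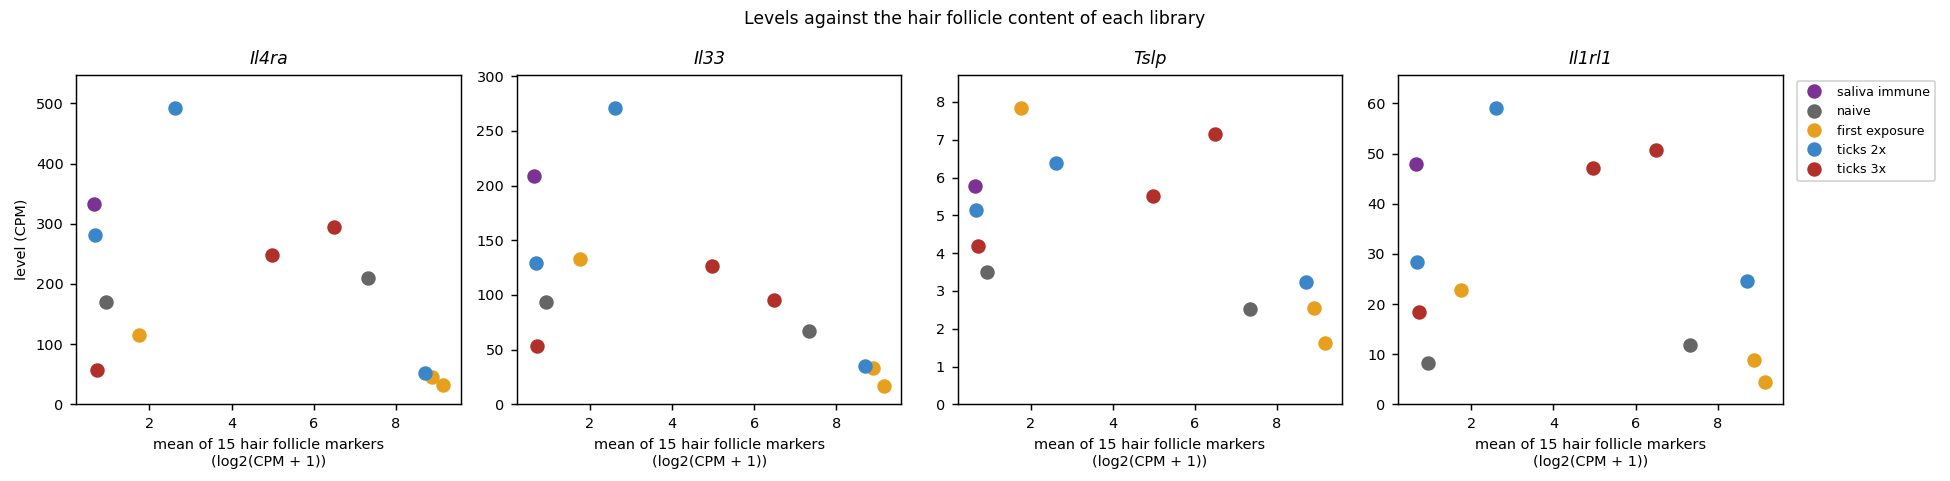
Level of Il4ra, Il33, Tslp and Il1rl1 in CPM (vertical axes, each from 0) against the mean of 15 hair follicle markers on the log2(CPM + 1) scale (horizontal axes), with 1 point per library coloured by group. The 3 libraries with follicle means of 8.71 to 9.16 held the lowest Il33 values, 16.8 to 34.9 CPM, while 3x replicate 3 was low for Il4ra with a follicle mean of 0.72.

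The first question was whether the skin of repeatedly infested mice differed from unbitten skin. Genes were compared with limma on log2(CPM + 1), with Benjamini-Hochberg adjustment over the 17064 genes that reached the level for testing, and 9 of the 10 genes were among them. After repeat exposure none of the 9 passed an adjusted p of 0.05 against naive skin, where 0.0410% of all genes tested did. Il1rl1 averaged 38.1 ± 16.4 CPM after repeat exposure (SD, n = 6) and 10.01 ± 2.52 CPM in naive skin (SD, n = 2), a log2 fold change of 1.73 (limma SE 0.57, 95% interval 0.44 to 3.02) with an adjusted p of 0.402. It was the 1 gene of the 9 with an unadjusted p below 0.05 (limma), a level that 9.74% of all genes reached. Crlf2 averaged 9.82 ± 2.19 CPM after repeat exposure (SD, n = 6) and 6.27 ± 0.626 CPM in naive skin (SD, n = 2), a log2 fold change of 0.55 (SE 0.25, interval -0.01 to 1.10, limma adjusted p = 0.519).

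Il1rl1 and Crlf2 were the 2 of 9 genes whose repeat exposure libraries all lay above naive skin, a separation found in 6.41% of all genes tested. The other 7 had log2 fold changes between -0.09 (Il4ra, SE 0.88) and 0.62 (Il13ra2, SE 0.48, and Tslp, SE 0.42), with limma adjusted p between 0.664 and 0.992. For Il4ra the interval ran from -2.08 to 1.89 and for Il33 from -1.60 to 2.16, and changes of several-fold either way lay inside the intervals. Stat6 had the narrowest interval, -0.44 to 0.56 around a log2 fold change of 0.06. Il4 and Il13ra2 would not have reached the level for testing without the repeat exposure libraries. Of the other 7 genes, 6 were above 0 with a median log2 fold change of 0.28, against 0.01 over the 16374 genes that reached it in naive or first exposure libraries.

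Taken separately, 2x and 3x gave nearly the same Il1rl1 values. Against naive skin the log2 fold change of Il1rl1 was 1.72 in 2x and 1.75 in 3x (SE 0.64 each, limma adjusted p = 0.389 and 0.656). None of the 9 genes passed in either comparison, where 0.0352% of all genes did in 2x and 0.00586% in 3x. In 2x, Il1rl1 and Crlf2 lay above naive skin without overlap (2 of 9, against 14.7% of all genes). In 3x, Tslp did so as well (3 of 9, against 15.5% of all genes). Il1rl1 was the 1 of 9 genes at an unadjusted p below 0.05 in each, a level reached by 10.9% of all genes in 2x and 6.95% in 3x. The 2 comparisons share the naive libraries.

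Directly compared, 3x and 2x were not separated for any of the 9 genes. None passed, and 0% of all 17064 genes did by limma, with 878 genes (5.15%) at an unadjusted p below 0.05 and none of the 9 genes among them. Log2 fold changes of 3x over 2x ran from -0.51 for Il13ra2 (SE 0.48) to 0.49 for Il4 (SE 0.41, adjusted p = 0.908). That of Il1rl1 was 0.03 (SE 0.57, interval -1.26 to 1.32), so a difference of over 2-fold between 2x and 3x would lie inside the interval.

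After a first exposure none of the 9 genes passed against naive skin either, where 0.0117% of all genes did. Il4ra averaged 64.0 ± 44.9 CPM after first exposure (SD, n = 3) and 189.8 ± 28.2 CPM in naive skin (SD, n = 2), a log2 fold change of -1.76 (SE 0.99, interval -3.98 to 0.45, limma adjusted p = 0.397). Il4 and Il4ra were the 2 of 9 genes whose first exposure libraries all lay below naive skin, against 14.0% of all genes. All 8 adipocyte markers and 6 of 7 endothelial markers also lay below naive skin without overlap, and all 15 hair follicle markers had fold changes above 0, whose part in the Il4ra values was not tested. Il1rl1 differed by 0.01 (SE 0.64), and none of the 9 genes reached an unadjusted p below 0.05, a level reached by 16.4% of all genes.

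The second question was whether repeat exposure differed from a first one. None of the 9 genes passed in this comparison, where 0.264% of all genes did. The 7 genes other than Il4 and Il13ra2 had fold changes above 0, with a median of 0.67 on the log2 scale against -0.08 over the 16374 genes that reached the level for testing in naive or first exposure libraries. Il1rl1 averaged 38.1 ± 16.4 CPM after repeat exposure (SD, n = 6) and 12.04 ± 9.50 CPM after first exposure (SD, n = 3), a log2 fold change of 1.73 (SE 0.50, interval 0.61 to 2.84, limma adjusted p = 0.132). It was the 1 of 9 genes at an unadjusted p below 0.05, as were 20.3% of all genes. Il4ra followed at 1.67 (SE 0.76, adjusted p = 0.256) and Il33 at 1.16 (SE 0.72, adjusted p = 0.363). The other 6 genes lay between 0.34 (Crlf2) and 0.67 (Il13ra1 and Il13ra2), with limma adjusted p between 0.312 and 0.430. None of the 9 was free of overlap, against 3.07% of all genes higher without overlap, while Il13, which is outside the 9, was free of overlap.

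Markers of several tissues also lay mostly on 1 side between the same groups, and none passed. All 15 hair follicle markers were lower after repeat exposure than after first exposure in log2 fold change (median -2.76), none without overlap with a smallest limma adjusted p of 0.293. All 8 adipocyte markers were higher (median 1.25), 6 of them without overlap, against 3.07% of all genes tested. All 8 had an unadjusted p below 0.05 by limma, as did 20.3% of all genes, with a smallest limma adjusted p of 0.0556. All 11 blood and myeloid markers tested were also higher (median 1.28), none without overlap. Of 8 keratinocyte markers, 7 were higher and 1 lower (median 0.49), none without overlap. Their mean log2(CPM + 1) was highest in 2x replicate 2 (10.6), the highest library for Il33. It was next highest in first exposure replicate 3 (10.5), the highest library for Tslp, and lowest in first exposure replicate 2 (8.82), the lowest for both. This order did not hold throughout. The mean was 9.57 in 2x replicate 3, which had rank 4 for Il33, and 10.2 in naive replicate 2, which had rank 8 for Tslp. With the follicle mean as a covariate, the log2 fold change of Il33 was 0.68 (limma adjusted p = 0.567), against 1.16 without it. Those of Il13ra1 and Tslp were 0.39 and 0.27 with it, against 0.67 and 0.50 without it. Il4ra was at 1.40 (limma adjusted p = 0.371) and Il1rl1 at 1.62 (adjusted p = 0.184) with the covariate. The part of adipocyte, myeloid and keratinocyte content in the members' values was not tested.

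The calls in this comparison changed with the libraries kept and with their weights. Without first exposure replicate 3, Il1rl1 reached 2.29 (limma adjusted p = 0.0317) and Tslp 1.01 (adjusted p = 0.0477), while 2008 of all genes (11.9%) were called, against 45 with it. Leaving out any other library gave 0 to 27 genes called and none of the 9, with 0 genes without first exposure replicate 2, 2x replicates 2 or 3, or 3x replicates 1 or 2. When limma weighted the libraries by their quality, 7 of the 9 genes passed, all except Il4 and Il13ra2, as did 25.4% of all genes. With either change the calls among the members have to be read against those shares.

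**Figure D3:**
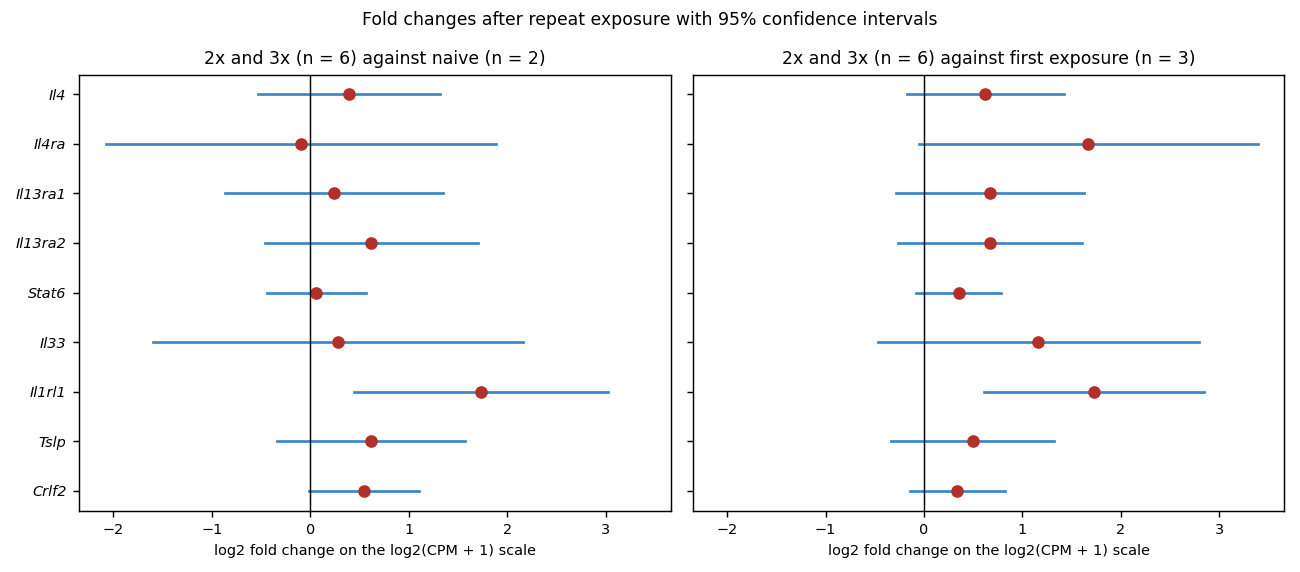
Log2 fold changes on the log2(CPM + 1) scale (horizontal axis) of the 9 genes tested, for 2x and 3x together (n = 6) against naive skin (n = 2, left) and against first exposure (n = 3, right), with points for limma's estimates and lines for 95% intervals. The interval of Il1rl1 lies above 0 in both panels, 0.44 to 3.02 and 0.61 to 2.84, before adjustment over all genes.

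Genes that respond to or accompany these signals were read from 16 lists of pathway genes and cell type markers. By limma, no gene of any list passed in any of the 6 comparisons. Of 20 IL-4 and IL-13 target genes, 19 were tested, 2 of which (Chil3 and Pdcd1lg2) would not have reached the level for testing without the repeat exposure libraries. Of the other 17, 11 were above and 6 below naive skin after repeat exposure in log2 fold change (median 0.45), and 2 had an unadjusted p below 0.05 by limma, as did 9.44% of the 16374 genes that reached that level in naive or first exposure libraries. Against first exposure 15 of the 17 were above and 2 below (median 1.33), and 11 had an unadjusted p below 0.05, as did 20.2% of those genes. Blood and myeloid markers lay on the same side there, 6 of 11 with an unadjusted p below 0.05. Their summed level was 634 to 1608 CPM in 2x and 781 to 1291 CPM in 3x, against 166 to 762 CPM after first exposure. Their part in the target genes' values was not tested. Postn, the matrix protein periostin, averaged 474.7 ± 179 CPM after repeat exposure (SD, n = 6) and 455.0 ± 109 CPM in naive skin (SD, n = 2). Mrc1, the macrophage mannose receptor, averaged 503.9 ± 306 CPM and 249.5 ± 78.9 CPM in the same groups (log2 fold change 0.74, SE 0.77, limma adjusted p = 0.790).

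The split of the repeat exposure libraries also showed in 2 macrophage target genes, chosen after their values were seen. Arg1, the arginine-degrading enzyme of alternatively activated macrophages, had 30.6 and 31.2 CPM in naive skin, 31.9, 37.1 and 45.4 CPM after the first exposure, 41.1, 354 and 445 CPM in 2x, and 250.1, 413 and 24.3 CPM in 3x. Chil3, the chitinase-like protein Ym1, had 0.202 and 0.479 CPM in naive skin, 0.385, 0.112 and 1.64 CPM after the first exposure, 0.983, 46.2 and 24.8 CPM in 2x, and 28.8, 52.6 CPM and a value listed at 0 in 3x. Of the 6 repeat exposure libraries, 4 were far above naive skin for both genes, and 2x replicate 1 and 3x replicate 3, which were low for Il4ra and Il33, were not. The log2 fold change of Arg1 over naive skin was 2.34 (SE 1.09, limma adjusted p = 0.530).

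**Figure D4:**
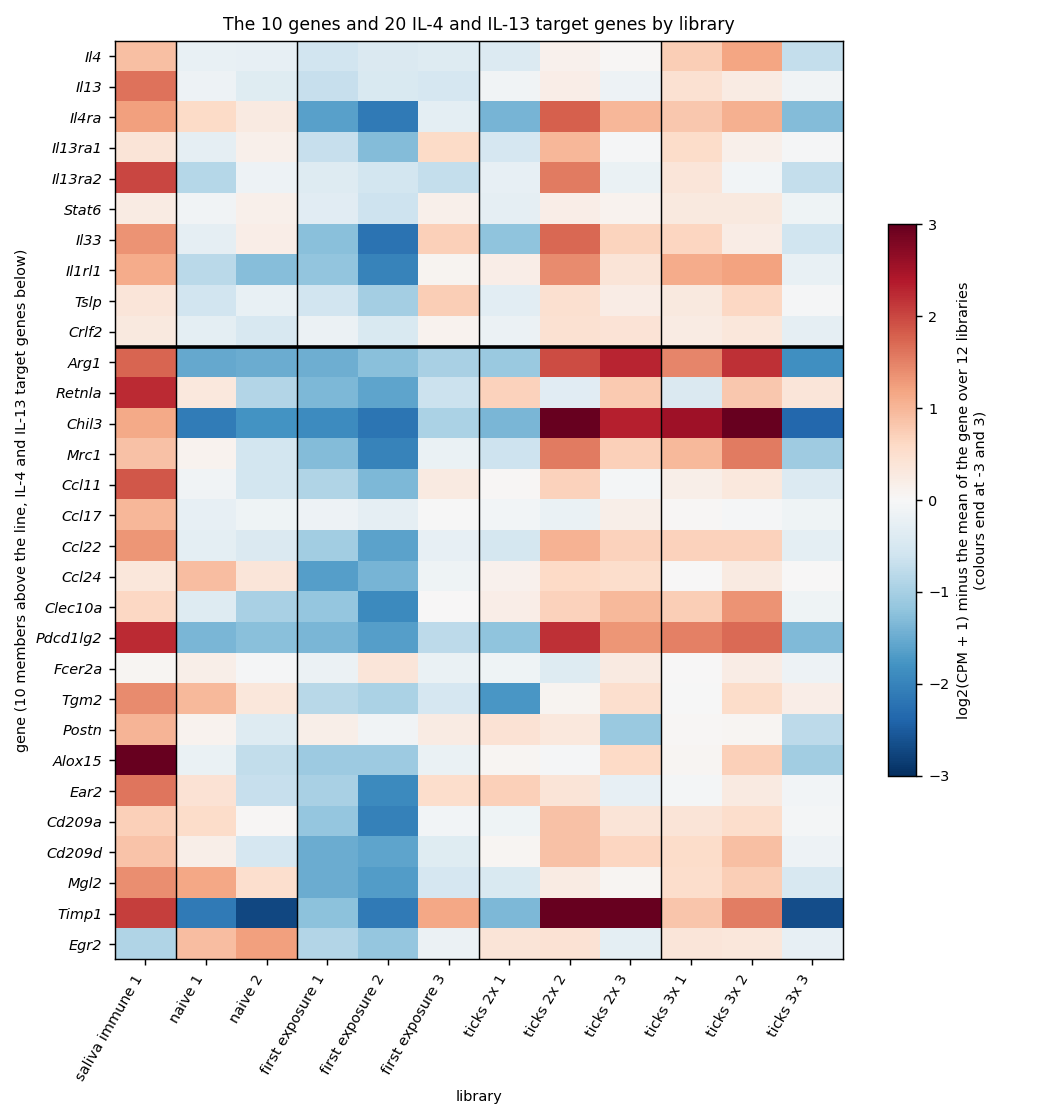
Log2(CPM + 1) of the 10 genes (above the line) and the 20 IL-4 and IL-13 target genes (below it) in each of the 12 libraries, minus the mean of the gene over the 12 libraries, with colours ending at -3 and 3. Arg1 and Chil3 are high in replicates 2 and 3 of 2x and replicates 1 and 2 of 3x and low in 2x replicate 1 and 3x replicate 3, and the saliva immune library is the highest for Il13 and Il13ra2.

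Among the partner cytokines of type 2 responses, 6 of 8 were found and 2, Areg and Il10, were tested. Areg, the growth factor amphiregulin made by epithelial cells and ILC2, had 32.1 and 33.6 CPM in naive skin, 8.49, 11.1 and 12.9 CPM after the first exposure, 14.4, 13.5 and 5.52 CPM in 2x, and 9.15, 13.98 and 5.68 CPM in 3x. Every bitten library lay below both naive libraries. After first exposure 14.0% of all genes tested did so, and the share for all bitten libraries together was not counted. The log2 fold change over naive skin was -1.67 after repeat exposure (SE 0.38, limma adjusted p = 0.271) and -1.53 after first exposure (SE 0.42, adjusted p = 0.138). Il10, an inhibitory cytokine, averaged 4.97 ± 4.18 CPM after repeat exposure (SD, n = 6) and 4.63 ± 2.14 CPM in naive skin (SD, n = 2), with a log2 fold change of -0.23 (SE 0.77, limma adjusted p = 0.960) and libraries that overlapped.

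Other chains and kinases of these pathways were counted in the same way. Of 11 receptor partner chains tested, Il5ra depended on the repeat exposure libraries to reach the level for testing. Of the other 10, 7 were above and 3 below naive skin after repeat exposure (median 0.65), with Csf2rb, the shared beta chain of the interleukin-3, interleukin-5 and GM-CSF receptors, at 0.73 (SE 0.76) and Osmr at 0.65 (SE 0.38). Of 13 kinases and adaptors, 8 were above and 5 below (median 0.07), with the kinase Jak1 at -0.22 (SE 0.32) and Stat3 at 0.18 (SE 0.34). Of 9 negative regulators, 6 were above and 3 below (median 0.26), with Socs3, a feedback inhibitor of Jak kinases, at 0.26 (SE 0.70) and the repressor Bcl6 at 0.27 (SE 0.29). These 3 lists had smallest limma adjusted p of 0.448, 0.295 and 0.480 in this comparison.

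Most markers of the cells that carry Il1rl1 or make the cytokines lay on the same side of naive skin as Il1rl1, and no marker passed the test. All 9 mast cell markers were above naive skin after repeat exposure in log2 fold change (median 1.15), 7 of the 9 without overlap and 4 at an unadjusted p below 0.05, against 6.41% and 9.74% of all genes tested. Their summed level was 143 to 462 CPM after first exposure, 543.9 to 659 CPM in 2x and 274 to 807 CPM in 3x, against 211 to 272 CPM in naive skin. The mast cell proteases Mcpt4 and Cpa3 averaged 130.2 ± 35.2 and 119.8 ± 37.2 CPM after repeat exposure (SD, n = 6), against 66.9 ± 9.28 and 51.2 ± 8.47 CPM in naive skin (SD, n = 2), with limma adjusted p of 0.590 and 0.542. Of 6 basophil markers tested, Cd200r3, Fcer1a and Mcpt8 depended on the repeat exposure libraries to reach the level for testing. The other 3 were above naive skin (median 0.80), 2 without overlap and 2 at an unadjusted p below 0.05. The shares were 5.9% and 9.44% over the 16374 genes that reached that level in naive or first exposure libraries. Ms4a2, among these 3, is also on the mast cell list, so both lists count it. The basophil list had sums of 29.3 to 50.3 CPM in 2x and 19.6 to 59.1 CPM in 3x, against 18.3 to 21.9 CPM in naive skin. Gata2 was at 0.34 (SE 0.47) and Il3ra at 0.80 (SE 0.29). The defining basophil protease gene Mcpt8 had 6.18 and 5.15 CPM in 2x replicates 2 and 3 and 6.91 and 7.57 CPM in 3x replicates 1 and 2. It had 0.0493 CPM in 2x replicate 1 and at most 0.130 CPM after first exposure, and was listed at 0 in 3x replicate 3 and in both naive libraries.

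T cell and ILC2 markers and eosinophil markers gave similar directions over wide ranges. Of 11 T cell and ILC2 markers tested, Cd3d and Trac depended on them in the same way, and 8 of the other 9 were above naive skin (median 0.55), none without overlap. The list had sums of 587.5 to 1041 CPM in 2x and 709.6 to 988 CPM in 3x, against 633 to 711 CPM in naive skin. These sums were mostly Gata3, Rora and Thy1, at 235, 186 and 186 of 633 CPM in naive replicate 1. Cd3e was at 5.07 CPM there, so the sums say little about T cell receptor genes. Gata3 and Rora were at log2 fold changes of 0.41 (SE 0.25) and 0.08 (SE 0.40) over naive skin. Of 3 eosinophil markers tested, Il5ra depended on the repeat exposure libraries as well, and the other 2 were above naive skin (median 0.57), none without overlap. The list had sums of 5.77 to 6.78 CPM in 2x and 5.06 to 10.5 CPM in 3x, against 2.24 to 5.66 CPM in naive skin. The part of cell numbers in the Il1rl1 values was not tested.

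Genes whose order over the 12 libraries was most like that of a member were found by the mean absolute difference in rank, among all genes tested, and are given as a description without a test. For Il4ra they were H2-Eb1 (0.333 ranks), Cd274 and Irf2 (0.5 each, with ties), and for Il1rl1 they were Cpxm1, Gimap3 and Sla2 (0.333 each). Il33 was followed most closely by Gm15987, Nrbp1 and Relb (0.5 each, with ties), Stat6 by Pip4k2a (0.333) and Il13ra1 by Gm10499 (0.167). For Tslp the nearest was BC028528 (0.333), for Crlf2 Ankrd66 (0.333), and for Il13ra2 Gm36496 (0.833). Il4 and Il13, listed at 0 in a library, were not ranked.

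The single saliva immune library has no replicate and allows no test. It was the highest of the 12 libraries for Il13 and Il13ra2, 2 of the 10 genes. This library was also the highest for 7.90% of the 25066 genes whose symbol is listed once, including genes below the level for testing. Il13 had 3.94 CPM there (101 estimated reads, exact 95% Poisson interval 3.21 to 4.79 CPM, counting error only), 3.24 times the next highest library, 3x replicate 1. Il13ra2 had 8.50 CPM (218 reads, interval 7.41 to 9.71 CPM), 1.42 times the next highest, 2x replicate 2. Il4 had 2.07 CPM (53 reads, interval 1.55 to 2.70 CPM), between the 3x libraries that had the most. The remaining members lay inside the range of the other 11 libraries, with Il1rl1 at 48.0 CPM and Il4ra at 332 CPM. Il33 at 208 CPM was above every naive, first exposure and 3x library, Stat6 at 153 CPM above every naive, first exposure and 2x library, and Il13ra1 at 177 CPM above both naive libraries.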

How the data were processed

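RNA sequencing libraries of 12 mouse skin biopsies were used. The authors' deposited table gives CPM per gene, to which 0.0001 had been added in every cell. STAR and Partek 8.0.19 and the build GRCm38.p6 are named in the submitters' processing notes. The counting program and annotation are not given there. Low values were whole multiples of 1 read within 0.02 reads for 73.4% to 79.3% of values per library, too few for a count test. Depth was 12.5 M to 29.8 M estimated reads, and intervals and floors cover counting error only.

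Genes reaching 1 CPM in 2 or more of 11 libraries were compared with limma 3.58.1 (R 4.3.3) on log2(CPM + 1), in 1 fit of 4 groups with 7 residual degrees of freedom and a variance trend. Fold changes on this scale understate changes of low genes. A call was a Benjamini-Hochberg adjusted p under 0.05. Il13 was tested by exact permutation, and the saliva immune library was only described. The limma code was run on counts simulated with the same spread in every library, without the differences between replicates seen here. That run checks the code and not how the method performs on these data. Of 163 genes in 16 lists, 158 were found by symbol. All members were named, with the 2 genes of highest mean CPM from each pathway or immune cell list and the closest genes in rank. The members and lists were chosen with earlier results of these data known. Alternatives covered pseudocounts, filters, scalings, group selection, moderation, weights, a hair follicle covariate and leaving out each library.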

Additional observations from a re-analysis of the deposited data

Results flagged for a closer look

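The saliva immune library lies outside every comparison between groups and had signal above the detection floor for each of the 10 genes. Il13 was at 3.94 CPM and Il4 at 2.07 CPM in it. The receptor chains were at 332 CPM (Il4ra), 177 CPM (Il13ra1) and 8.50 CPM (Il13ra2), and Stat6 was at 153 CPM. The alarmin Il33 was at 208 CPM with its receptor Il1rl1 at 48.0 CPM, and Tslp was at 5.77 CPM with Crlf2 at 10.6 CPM. Its title places it in the series of the first exposure libraries, whose highest Il13 value was 0.167 CPM.

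Il13 lay on opposite sides of naive skin in 2 groups. All 3 libraries of 3x lay above both naive libraries and all 3 of first exposure lay below both, with 3x minus first exposure at 0.75 in mean log2(CPM + 1). The difference between these 2 groups was not tested on its own, nor was either group compared with naive skin by permutation. With all genes kept in the limma fit, Il13 differed from naive skin by -0.28 after first exposure (adjusted p = 0.483). In 3x the log2 difference from naive skin was 0.47 (limma adjusted p = 0.690). The first exposure values rest on 0, 3 and 3 estimated reads and naive replicate 2 on 3. At 3 reads each, first exposure replicates 2 and 3 lay below naive replicate 2 only through their greater estimated depth. That depth was 17.9 M and 23.2 M reads, against 12.5 M in naive replicate 2. Il13 was singled out after all members were compared, as the only member free of overlap with naive skin in both directions. Of all genes tested, which leave out Il13, 15.5% lay above naive skin without overlap in 3x and 14.0% lay below it after first exposure. The share of genes that did both was not counted.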

How the results depend on the processing

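Of 681 values recomputed for 33 results, 654 kept their direction and their side of the threshold. Among the exceptions, the 7 genes called between repeat and first exposure with array weights, against 0 with equal weights, had log2 fold changes of 2.62 for Il4ra and Il1rl1, 1.40 for Il13ra1, 0.66 for Stat6, 2.33 for Il33, 1.03 for Tslp and 0.62 for Crlf2 (limma adjusted p 0.0151 to 0.0428). The weights stopped before convergence. Leaving out 1 library gave 0 to 2 members called in that comparison. The cause was not tested. The small Il4ra difference from naive skin turned to 0.39 with array weights and spanned -0.43 to 0.37 over the leave-outs, Stat6 spanned -0.0588 to 0.18 and Il33 -0.0519 to 0.68. Il1rl1 in 3x over 2x was -0.0132 with median-of-ratios scaling and spanned -0.22 to 0.49. Il13 over first exposure was 2.10 with a pseudocount of 0.1, against 0.64 with 1, and spanned 0.56 to 0.69 over the leave-outs, with exact permutation p adjusted over 2 tests of 0.0357 to 0.0714. It missed 0.05 in 5 of 9 leave-outs, without 2x replicate 1, 3x replicate 3 or any of the first exposure replicates, the last 3 of which cannot reach 0.05 at that size. Il1rl1 over naive skin stayed between 1.495 and 2.03 under all alternatives, with limma adjusted p from 0.0561 to 0.946.

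Over all genes, the calls between repeat and first exposure numbered 45, against 0 to 4328 under other settings, and those between first exposure and naive skin 2, against 0 to 1753. Those between repeat exposure and naive skin numbered 7, against 0 to 147. Those of 2x numbered 6, against 0 to 34, and those of 3x 1, against 0 to 276, while 3x over 2x gave 0, against 0 to 1. The fit with 2x and 3x as 1 group and the counts without genes that needed the repeat exposure libraries to be tested were added after seeing the data. A filter at 5 CPM removed Il4 and Il13ra2, and Il4 could not be fitted without 3x replicate 1 or 2. No paired analysis was possible because the labels number no replicates across groups. At these depths Il4 and Il13 rest on fewer than 20 reads in most libraries.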

Other observations

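Of 20 IL-4 and IL-13 target genes, 10 were at their highest in the saliva immune library, as were 4 of 5 eosinophil markers and 1 of 6 partner cytokines. The share was 7.90% over the 25066 genes whose symbol is listed once, including genes below the level for testing. The saliva immune library is a single library, read here after its values were seen and without a test. Il5, the eosinophil growth factor that is made with interleukin-13 by helper T cells and ILC2, was at 3.47 CPM there (89 estimated reads) and at 0.370 CPM or below in the other 11 libraries. Among the eosinophil markers, Siglecf was at 11.5 CPM against at most 2.62 CPM elsewhere and the eotaxin receptor Ccr3 at 17.7 CPM against at most 5.98 CPM. Ccl11, which encodes eotaxin-1, was at 152 CPM against at most 66.0 CPM. Among the IL-4 and IL-13 target genes, the lipoxygenase Alox15 was at 64.6 CPM against at most 12.6 CPM, and Retnla, the resistin-like protein of alternatively activated macrophages, was at 828 CPM against at most 308 CPM. Other genes of these lists were not at their highest there. Areg, at 3.71 CPM, was the lowest of the 12 libraries, and Il25 and Egr2 ranked 11 of 12 from the highest. Chil3 and Arg1 ranked 5 and 4, at 10.3 and 306 CPM. Both lay above every naive and first exposure library, whose highest values were 1.64 CPM (Chil3) and 45.4 CPM (Arg1).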
